A study of Bos taurus with 17 samples.

Results

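Ion channel genes were followed across the growth and differentiation of bovine umbilical cord mesenchymal stem cells, the stromal cells that attach to plastic when cord tissue is cultured. The genes were chosen by symbol: potassium (KCN), voltage-gated calcium (CACN) and sodium (SCN) channel genes, TRPC, TRPM and TRPV channels, anoctamins (ANO), CLC and CLIC chloride channel genes, and the PIEZO, ORAI, P2RX, RYR and ITPR families. Of 12894 genes in the deposited table, 60 carried such a symbol, and 45 had a mean of at least 5 normalized reads over the libraries and are the members counted here. The members nearest that limit were CLCN4, with a mean of 5.84 just inside it, and SCN1A, with a mean of 4.96 just outside. The symbol rule also takes TRPC4AP, which encodes a protein associated with TRPC4 and not a channel subunit. Auxiliary subunits, which modify channels without forming a pore, are among the 45 as well.

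The study grew these cells for cultivated meat on plastic or on cellulose scaffolds, and RNA was counted by MARS-seq, which reads the 3′ ends of polyadenylated transcripts. Plastic cultures were sampled before myogenic differentiation, on the day after seeding (day 0, 3 libraries), and at day 3 (3 libraries) and day 21 (2 libraries) of it. Scaffold cultures were sampled at day 21 of differentiation in a pair of forms. On the media scaffold (4 libraries) the growth factors were supplied in the medium, and on the smart scaffold (3 libraries) they were attached to the cellulose and left out of the medium. All were primary cord cells with no genetic change named in the labels. The growth medium was low-glucose DMEM with 10% serum. The differentiation medium was DMEM/F-12 with 2% serum, insulin, transferrin and selenium, albumin, dexamethasone, ascorbic acid 2-phosphate and the factors VEGF, IGF and FGF. Replicates are biological, per the series' design text, but the number of donors is not given. Time and medium change together after day 0, and on scaffolds the surface changes as well, so their parts cannot be told apart in comparisons with day 0. Smart scaffold against plastic at day 21 changes the surface and the supply of growth factors together, so these cannot be told apart either.

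Ion channels let ions cross a membrane when they are opened by voltage, stretch, ligands or calcium. Potassium channels set the resting potential of stromal and muscle cells. Calcium enters through voltage-gated, TRP, PIEZO, ORAI and P2RX channels, or leaves the endoplasmic reticulum through inositol trisphosphate receptors (ITPR). Chloride leaves or enters through anoctamins and some CLC proteins, while other CLC proteins exchange chloride for protons in endosomes and lysosomes. Mesenchymal stromal cells are known to carry calcium-activated potassium current and store-operated calcium entry.

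Libraries held 2197356 to 15483745 reads, and those of plastic at day 21 were the shallowest, at 2197356 and 5264578. Normalized reads are the deposited values, which are read counts divided by a scaling factor per library. By this scaling 1 counted read was worth 0.395 to 3.44 normalized reads. All 11 stromal markers sought, such as THY1, VIM and COL1A1, were in the table. The sum of their normalized reads was 157050 to 168120 at day 0 and 219780 to 230210 on plastic at day 21. It was 537210 to 539920 on the media scaffold and 490910 to 566300 on the smart scaffold. By the calling rule given below, 5 of the 11 were higher than at day 0 in each day 21 group, and 1 was lower on plastic. The summed level of 9 of 10 smooth muscle markers was 39257 to 44073 at day 0, 107920 to 132850 on plastic at day 21, 74612 to 88722 on the media scaffold and 89718 to 104680 on the smart scaffold. Such a sum is led by its most abundant genes. Against day 0, 6 of the 9 were called higher on plastic at day 21 (21.2% of all genes). On the media scaffold 2 were (17.5%) and on the smart scaffold 3 (16.5%), and none was called lower. For 4 of 11 blood and immune markers the sum was 26.8 to 30.2 at day 0, 117 to 168 on plastic at day 21, 22.2 to 30.8 on the media scaffold and 23.1 to 29.5 on the smart scaffold. For 6 of 16 skeletal muscle markers it was 9.87 to 22.5 at day 0, 82.8 to 141 on plastic at day 21, 14.9 to 75.3 on the media scaffold and 11.6 to 21.8 on the smart scaffold. Among the markers measured, SYT1 was at 0 in all day 0 libraries and CDH1 at 0 in all day 3 libraries. The part of these marker changes in the channel results was not tested. In bulk RNA, fewer cells that express a gene and less RNA per cell cannot be told apart.

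The set was at its lowest before differentiation. Day 0 gave the lowest group mean for 24 of the 45 genes (53.3%), against 24.8% of the 10960 genes tested, and plastic at day 21 gave the highest for 23 (51.1%, against 31.1%). Changes were tested with limma on log2(normalized reads + 1) over all 15 libraries. A gene was called, and is said to have risen or fallen, at a Benjamini-Hochberg adjusted p under 0.05 with a log2 change of at least 1. From day 0 to day 3 on plastic 13 channel genes were called where 10% of all genes tested were, 11 of them higher (6.27% of all genes) and 2 lower (3.73%). From day 3 to day 21 on plastic 20 were called against 34.9% of all genes, 14 higher (15.5%) and 6 lower (19.4%). Over the whole period on plastic 29 were called against 45.2% of all genes, 25 higher (21.2%) and 4 lower (24.1%). The higher calls were 55.6% of the members, and the median log2 change was 1.06 for the members and −0.06 for all genes. The split moved when libraries were rescaled to the same total, which lowered the median of all genes by 0.26: 19 members (42.2%) were then higher and 7 (15.6%) lower, where 16.5% and 29.9% of all genes were. From day 3 to day 21 the same rescaling lowered that median by 0.32 and gave 10 (22.2%) higher and 9 (20%) lower, where 10.5% and 27.9% of all genes were.

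Against day 0, the media scaffold had 24 members called where 32.4% of all genes were, 20 higher (17.5%) and 4 lower (14.9%). The smart scaffold had 25 called against 30.6%, 21 higher (16.5%) and 4 lower (14.1%). With libraries rescaled to the same total, the media scaffold had 18 members (40%) higher and 4 (8.89%) lower, where 13.6% and 20.7% of all genes were. The smart scaffold then had 18 (40%) higher and 5 (11.1%) lower, where 13% and 19.7% of all genes were. These comparisons and that of plastic at day 21 share the day 0 libraries. Set against plastic of the same day, the 2 scaffolds again shared their control. The media scaffold had 17 members called against 35.4% of all genes, 9 higher (20.8%) and 8 lower (14.6%). The smart scaffold had 19 called against 37.5%, 10 higher (21.4%) and 9 lower (16%). These shares, 37.8% and 42.2% of the members, were near those of all genes. Under quantile normalization the split for the smart scaffold became 8 (17.8%) higher and 11 (24.4%) lower, where 20.3% and 16.7% of all genes were. The compared groups shared no range for 26 members in day 3 against day 0 (44.3% of all genes), 38 in day 21 against day 3 (65.4%) and 40 in day 21 against day 0 (79.7%) on plastic. They did not for 33 on the media and 35 on the smart scaffold against day 0 (72.4% and 72.9% of all genes), and for 34 and 35 against plastic of day 21 (71.2% and 73.1%). The single pair in which a called gene's libraries overlapped between groups was SCN2A in smart scaffold against plastic at day 21.

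The minimum mean of 5 favours genes that are high somewhere, and 6 members met it only through the libraries where they were high. CLIC2, ANO1 and CLCN4 had a mean under 5 without their highest group, which was the media scaffold, plastic at day 21 and plastic at day 3. KCNK5, KCNK17 and KCNJ8 had one under 5 over the plastic libraries alone, as CLIC2 did too, and CLCN4 had one over the scaffold libraries alone. Tests of these genes that set the group where they were high against others are not independent of that choice. Among the other 39 members 21 were higher and 4 lower on plastic at day 21 against day 0 (21.2% and 24.1% of all genes). Against day 0 the media scaffold had 16 of them higher and 4 lower (17.5% and 14.9% of all genes). The smart scaffold had 17 higher and 4 lower (16.5% and 14.1%). Against plastic at day 21, 5 of the 39 were higher and 7 lower on the media scaffold (20.8% and 14.6% of all genes). On the smart scaffold 8 were higher and 8 lower (21.4% and 16% of all genes).

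**Figure D1:**
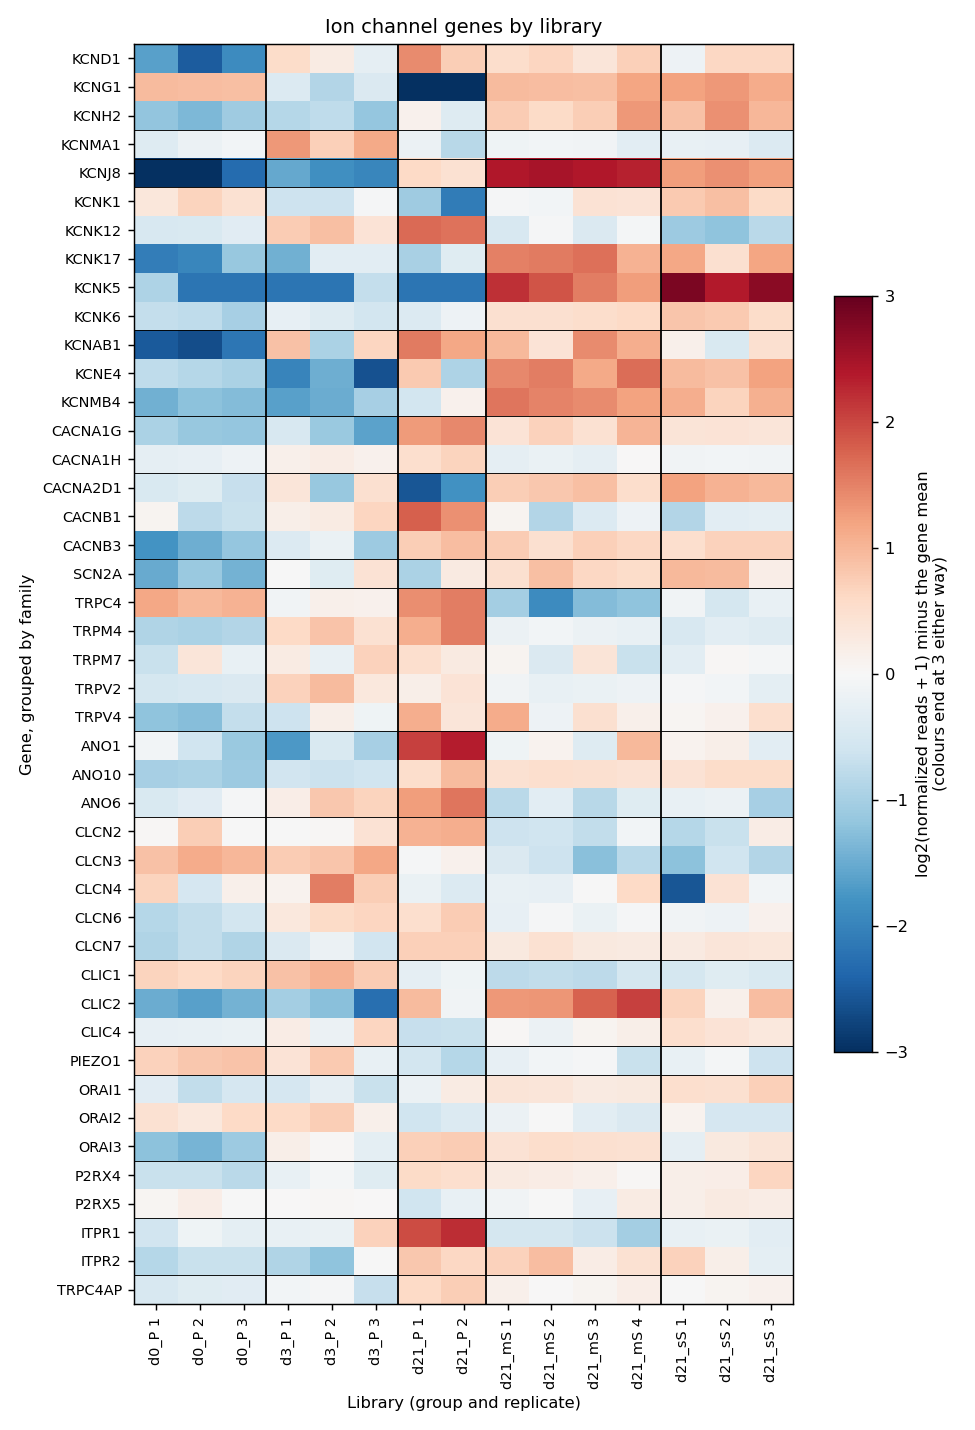
Heat map of 44 of the ion channel genes (rows, grouped by family) in the 15 libraries (columns), coloured by log2(normalized reads + 1) minus the gene's mean. Most genes are low at day 0. KCNG1 is lowest on plastic at day 21, while KCNK5 is below its mean in all plastic groups. Both are higher than this on both scaffolds.

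Of the 3 voltage-gated potassium channel genes, KCNG1 was nearly absent from plastic at day 21 and present on scaffolds. KCNG1 (ENSBTAG00000003398) encodes a silent subunit that forms no channel alone and alters those of the KCNB family. It counted 80.9, 79.5 and 77.8 normalized reads before differentiation, 31.0, 22.1 and 30.3 on day 3, and 0 and 3.44 on plastic on day 21. On the media scaffold they were 80.4, 79.6, 77.8 and 94.8, and on the smart scaffold 97.4, 104 and 90.8. The scaffold libraries lay near or above the range of day 0, and none overlapped those of plastic at day 3 or day 21. It fell by day 3 (log2 change −1.49, SE 0.35, limma adjusted p = 0.00349). Plastic at day 21 held 1 KCNG1 read in all. The level at day 0 was higher by a ratio of 80.3, with a 95% counting interval of 14.3 to 3178 (limma adjusted p = 2.73e-09). The ratio to plastic at day 21 was 84.0, with a 95% counting interval of 15.0 to 3328, for the media scaffold (limma adjusted p = 3.33e-09). For the smart scaffold it was 99.7, with a 95% counting interval of 17.7 to 3953 (limma adjusted p = 3.58e-09).

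KCND1, a pore subunit of rapidly inactivating A-type potassium channels, moved the other way and rose in every differentiated group. Its values were 10.5, 5.33 and 8.68 at day 0, 51.9, 41.3 and 28.6 at day 3 and 95.2 and 58.4 on plastic at day 21. The scaffolds gave 50.9, 54.7, 45.4 and 58.2 (media) and 31.4, 53.8 and 54.0 (smart). No later library reached down to those of day 0. The rise was already called at day 3 (log2 change 2.18, SE 0.29, limma adjusted p = 1.95e-05) and stood at 3.08 on the log2 scale on plastic at day 21 (SE 0.32, limma adjusted p = 2.11e-07). On the media and smart scaffolds the log2 changes from day 0 were 2.57 and 2.37 (limma adjusted p = 2.22e-07 and 1.69e-06).

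KCNH2, the delayed rectifier known for its part in repolarising heart muscle, was highest on scaffolds. It had 31.6, 27.7 and 33.9 normalized reads at day 0, 80.0 and 55.0 on the late plastic, 123, 108, 122 and 182 on the media scaffold and 135, 190.0 and 147 on the smart scaffold. Every scaffold library was above every plastic library. From day 0 it rose on the media scaffold (log2 change 2.05, SE 0.20, limma adjusted p = 6.68e-08) and on the smart scaffold (log2 change 2.29, SE 0.21, limma adjusted p = 4.63e-08). KCNH2 rose on plastic by day 21 as well (log2 change 1.07, SE 0.23, limma adjusted p = 0.000594). That log2 change was 0.996 without day 0 replicate 2, 0.81 without plastic replicate 1 and 0.81 with libraries rescaled to the same total, under the limit of 1. Smart scaffold against plastic of day 21 was called (log2 change 1.22, limma adjusted p = 0.00023), and media scaffold against it was not. Without replicate 2 of that plastic group the smart scaffold log2 change was 0.95, under the limit of 1.

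KCNMA1, the pore of the large-conductance calcium-activated potassium channel, was high at day 3 alone. The day 3 libraries had 367, 245 and 325, against 113, 130.1 and 141 at day 0, 129.7 and 82.5 on plastic at day 21, 135, 139, 137 and 117 on the media scaffold and 127, 124 and 112 on the smart scaffold. No library of any other group reached those of day 3. KCNMA1 rose from day 0 to day 3 (log2 change 1.27, SE 0.17, limma adjusted p = 2.62e-05) and fell by day 21 on plastic (log2 change −1.56, SE 0.19, limma adjusted p = 2.38e-06). The day 21 groups were within −0.30 to 0.05 of day 0 on the log2 scale, and none of the 3 differences was called.

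From day 0, KCNJ8 and KCNK5 had the largest log2 changes of the 45 genes on both scaffolds. KCNJ8 (ENSBTAG00000002551) encodes the pore of an ATP-sensitive potassium channel known from vascular smooth muscle. It was listed at 0, 0 and 1.18 at day 0 (3 reads in all) and 2.69, 2.01 and 1.79 at day 3. By day 21 it had 15.2 and 13.7 on plastic, 55.8, 58.7, 55.9 and 52.3 on the media scaffold and 24.8, 26.9 and 24.1 on the smart scaffold. The 5 groups did not overlap at any step, and the media scaffold was the highest. Its level over day 0 was higher by a ratio of 108, with a 95% counting interval of 36.6 to 528, on the media scaffold (limma adjusted p = 4.19e-11). On the smart scaffold the ratio was 49.5, with a 95% counting interval of 16.2 to 246 (limma adjusted p = 2.9e-09). Media scaffold against plastic at day 21 was called (log2 change 1.87, SE 0.34, limma adjusted p = 0.000135), and smart scaffold against plastic was not (log2 difference 0.76, SE 0.36, limma adjusted p = 0.0725). KCNJ8 met the minimum mean through the scaffold libraries, so its tests of scaffold against plastic are not independent of that choice.

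KCNK5 (ENSBTAG00000011112), a leak channel of the two-pore-domain family opened by alkaline pH, was read almost solely in scaffold libraries, through which it met the minimum mean. The 8 plastic libraries held 2 reads of it at day 0, 1 at day 3 and 0 at day 21. The media scaffold gave 19.7, 15.9, 12.1 and 9.87 normalized reads and the smart scaffold 31.4, 22.6 and 28.7. Every scaffold library was above every plastic one, and all smart scaffold values were above all media scaffold values. Against plastic at day 21 the level was at least 4.92-fold higher on the media scaffold and at least 9.02-fold higher on the smart scaffold, taking a floor of 3 reads over the plastic group (limma adjusted p = 5.13e-06 and 8.36e-07). Against day 0 the ratio was 42.4, with a 95% counting interval of 11.3 to 357, on the media scaffold (limma adjusted p = 3.44e-06). On the smart scaffold it was 77.6, with a 95% counting interval of 20.7 to 654 (limma adjusted p = 5.3e-07).

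The other 4 two-pore-domain genes divided. KCNK17, which also passes a leak current at alkaline pH, had 1.41 to 3.55 at day 0 and 4.14 and 6.87 on plastic at day 21, against 27.9, 28.9, 30.8 and 19.7 on the media scaffold and 21.5, 13.0 and 21.8 on the smart scaffold. It rose over plastic of the same day on both (log2 change 2.11, SE 0.41, limma adjusted p = 0.00026, and log2 change 1.60, SE 0.43, limma adjusted p = 0.00387). KCNK17 met the minimum mean through the scaffold libraries, so these tests are not independent of that choice. KCNK1, a weakly inward rectifying leak channel, had 42.2, 52.8 and 45.4 at day 0 and 15.2 and 6.87 on plastic at day 21. The scaffolds held 32.0, 30.8, 44.5 and 44.4 (media) and 57.8, 62.5 and 49.4 (smart), so plastic at day 21 lay below all other groups. KCNK1 fell on plastic (log2 change −2.08, SE 0.30, limma adjusted p = 9.06e-06) and was higher than there on the media scaffold (log2 change 1.77, limma adjusted p = 4.13e-05) and the smart scaffold (log2 change 2.34, limma adjusted p = 3.43e-06). Plastic at day 21 held 13 KCNK1 reads in all.

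KCNK6, a further leak channel of this family, had 114 to 139.9 at day 0 and rose to between 320.1 and 348 on the media scaffold and between 334 and 409 on the smart scaffold (log2 change 1.35 and 1.54, limma adjusted p = 1.6e-08 and 8.04e-09). KCNK12, of the halothane-inhibited subgroup, had the opposite pattern. It had 117, 119 and 129 at day 0, 276, 308 and 216 at day 3 and 531 and 505 on plastic at day 21, but 116, 160.2, 119.9 and 156 on the media scaffold and 75.9, 70.3 and 93.1 on the smart scaffold. On plastic each later day lay higher without overlap, and each smart scaffold library was below each day 0 library. KCNK12 rose on plastic by day 21 (log2 change 2.08, SE 0.18, limma adjusted p = 1.89e-08). Set against that group it was lower on the media scaffold (log2 change −1.92, SE 0.17, limma adjusted p = 5.72e-08) and on the smart scaffold (log2 change −2.69, SE 0.18, limma adjusted p = 1.88e-09).

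**Figure D2:**
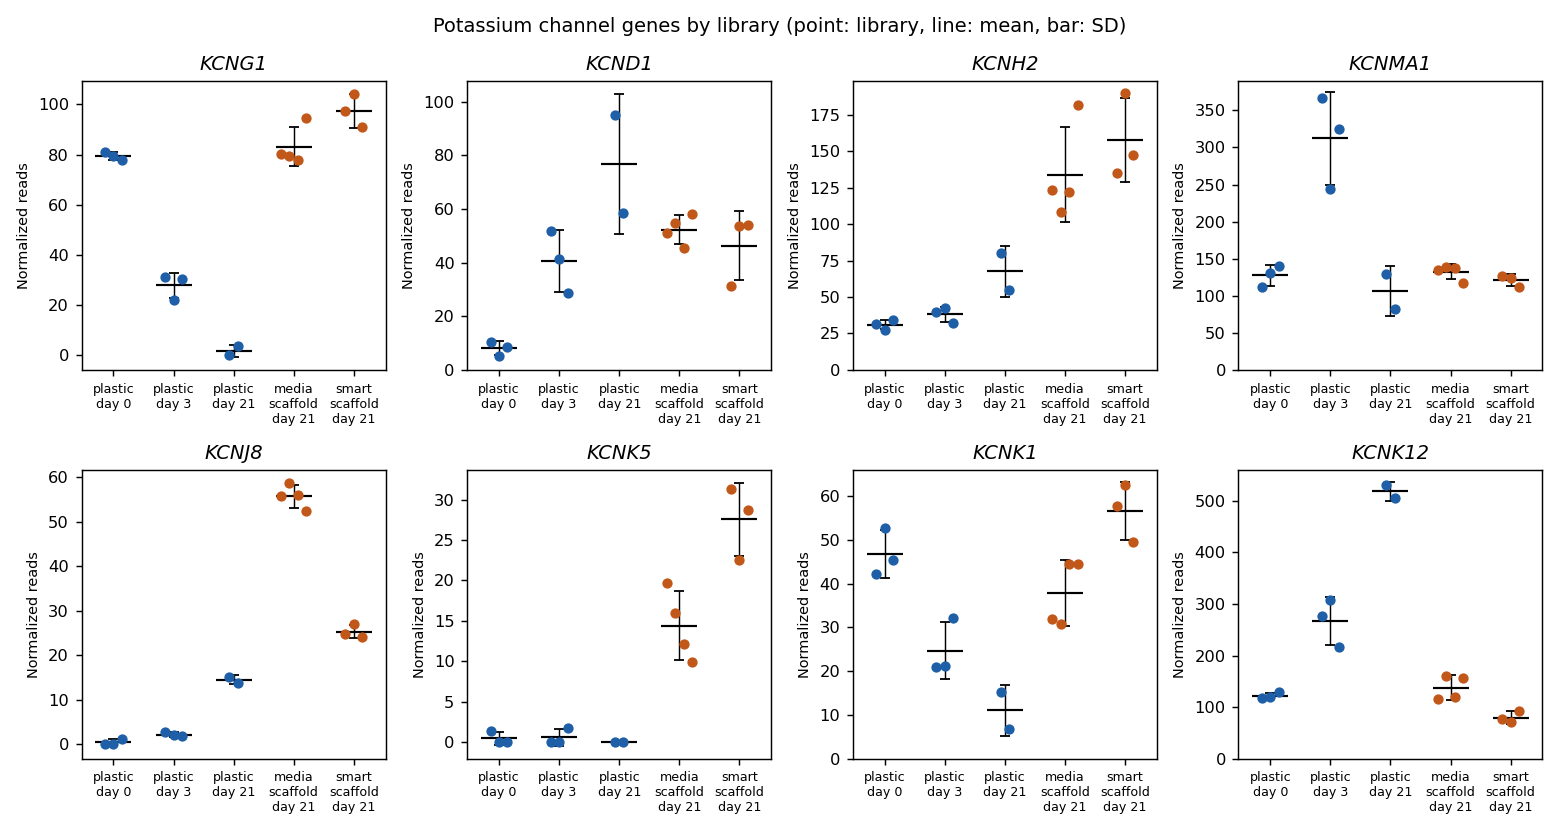
Normalized reads of 8 potassium channel genes in each library (points; blue plastic, orange scaffold), with group mean (line) and SD (bar). KCNG1 and KCNK1 are lowest on plastic at day 21, KCNJ8, KCNK5 and KCNH2 are highest on scaffolds, KCNMA1 is highest at day 3, and KCNK12 is highest on plastic at day 21.

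Of the 3 auxiliary subunits of potassium channels, KCNAB1 rose early and KCNMB4 and KCNE4 were highest on scaffolds. KCNAB1 encodes a cytoplasmic beta subunit that speeds inactivation of voltage-gated potassium channels. It had 0.703, 0.533 and 1.18 at day 0, 16.8, 4.02 and 14.3 at day 3 and 27.6 and 20.6 on plastic at day 21, with 11.9 to 25.1 on the media and 6.07 to 12.6 on the smart scaffold. Day 0 was below every later library, and the gene rose by day 3 (log2 change 2.64, SE 0.44, limma adjusted p = 0.000208) and by day 21 on plastic (log2 change 3.80, SE 0.49, limma adjusted p = 2.67e-06).

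KCNMB4, a beta subunit of the large-conductance channel whose pore is KCNMA1, had 6.33, 7.47 and 7.11 at day 0 and 12.4 and 20.6 on plastic at day 21. It reached 59.1, 54.7, 51.8 and 44.4 on the media scaffold and 41.3, 30.4 and 40.2 on the smart scaffold, while the pore gene was highest at day 3. From day 0 it rose on the media scaffold (log2 change 2.74, SE 0.25, limma adjusted p = 2.72e-08) and the smart scaffold (log2 change 2.25, SE 0.26, limma adjusted p = 9.21e-07). It was above plastic of day 21 on the media scaffold (log2 change 1.64, SE 0.28, limma adjusted p = 6.66e-05). On the smart scaffold that call (log2 change 1.16) ended without replicate 1 of plastic, at 0.81.

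KCNE4, a single-pass subunit that restrains several voltage-gated potassium channels, had 15.5, 14.4 and 13.4 at day 0, 6.06, 9.06 and 3.57 at day 3 and 46.9 and 13.7 on plastic at day 21. The 2 plastic libraries of day 21 lay far apart. The scaffolds had 74.7, 79.6, 60.7 and 87.9 (media) and 52.8, 50.3 and 63.2 (smart), all above that pair. It rose from day 0 on the media scaffold (log2 change 2.30, SE 0.33, limma adjusted p = 8.88e-06) and the smart scaffold (log2 change 1.87, SE 0.35, limma adjusted p = 0.000191). Against plastic at day 21 the log2 change was 1.52 on the media scaffold and 1.08 on the smart scaffold (limma adjusted p = 0.00189 and 0.0235). Both calls rested on replicate 2 of plastic: without it they were 0.67 and 0.23. For the smart scaffold it also ended with a pseudocount of 4 (0.98), under quantile normalization (0.96), with the compared groups fitted alone (adjusted p = 0.0694 in limma), in edgeR (0.68) and without smart scaffold replicate 3 (0.98).

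Voltage-gated calcium channels were represented by 2 pore and 3 auxiliary genes, and both pore genes belong to the low-voltage-activated T type. CACNA1G had 20.4, 17.6 and 17.4 at day 0, 28.3, 18.1 and 12.5 at day 3 and 99.4 and 110.0 on plastic at day 21. It had 53.3, 65.7, 55.9 and 82.9 on the media scaffold and 52.8, 53.8 and 51.7 on the smart scaffold, between the early and late plastic libraries and overlapping neither. It rose from day 0 on plastic (log2 change 2.44, SE 0.27, limma adjusted p = 4.74e-07), on the media scaffold (log2 change 1.73, SE 0.23, limma adjusted p = 3.75e-06) and on the smart scaffold (log2 change 1.47, SE 0.25, limma adjusted p = 5.71e-05). CACNA1H was not called in any of the 8 comparisons, with 788 to 857 at day 0 and 1351 and 1495 on plastic at day 21 (log2 difference 0.80, SE 0.10, limma adjusted p = 2.11e-06). CACNA1C, the L-type pore gene, was not analysed here.

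CACNA2D1 (ENSBTAG00000020569), the alpha2delta subunit that carries calcium channels to the membrane and binds gabapentin, separated plastic from scaffold. It had 63.3, 67.2 and 53.7 at day 0, 112, 39.2 and 121 at day 3 and 13.8 and 24.1 on plastic at day 21. The media scaffold gave 145, 154, 163 and 125 and the smart scaffold 201, 180.5 and 172, all higher than any plastic library. It fell on plastic from day 0 (log2 change −1.69, SE 0.35, limma adjusted p = 0.000316). Compared with that group it was higher on the media scaffold (log2 change 2.93, SE 0.33, limma adjusted p = 7.06e-07) and the smart scaffold (log2 change 3.27, SE 0.35, limma adjusted p = 3.63e-07). It also rose from day 0 on the smart scaffold (log2 change 1.58, limma adjusted p = 0.000274). On the media scaffold that call (log2 change 1.24) ended at 0.998 with libraries rescaled to the same total.

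The beta subunits, which bind the pore from the cytoplasm, differed from each other. CACNB3 rose in every day 21 group: it had 61.9, 77.9 and 95.9 at day 0, 357 and 409 on plastic at day 21, 299 to 364 on the media scaffold and 304 to 351 on the smart scaffold. The log2 changes from day 0 were 2.29, 2.10 and 2.09 (limma adjusted p = 5.2e-08, 1.53e-08 and 4.92e-08). CACNB1, the beta subunit of the skeletal muscle calcium channel, was high on plastic, with 37.3 and 27.5 at day 21 against 10.5, 5.33 and 5.92 at day 0. The scaffolds held 4.97 to 10.7 (media) and 4.95 to 8.05 (smart), below both plastic libraries of that day. It rose on plastic (log2 change 2.05, SE 0.39, limma adjusted p = 0.000142) and was lower than there on the media scaffold (log2 change −1.93, SE 0.37, limma adjusted p = 0.000203) and the smart scaffold (log2 change −2.08, SE 0.39, limma adjusted p = 0.000157).

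SCN2A, a sodium channel pore gene best known from neurons, rose by day 3. It had 6.33, 8.53 and 6.71 at day 0 and 19.5, 15.1 and 26.8 at day 3 (log2 change 1.36, SE 0.32, limma adjusted p = 0.00378). On plastic at day 21 its libraries gave 9.66 and 24.1. The scaffolds gave 27.9, 37.8, 30.8 and 29.6 (media) and 39.6, 39.0 and 23.0 (smart), and both rose from day 0 (log2 change 1.99 and 2.06, limma adjusted p = 1.78e-05 and 2.96e-05).

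Of the calcium release channels, ITPR1 marked plastic at day 21 and ITPR2 did not. ITPR1 (ENSBTAG00000020455), an inositol trisphosphate receptor of the endoplasmic reticulum, had 23.2, 32.0 and 28.4 at day 0, 29.6, 30.2 and 57.1 at day 3 and 138 and 165 on plastic at day 21. The media scaffold gave 23.8, 23.9, 21.9 and 16.8 and the smart scaffold 29.7, 30.4 and 27.6, within or near the range of day 0. It rose on plastic (log2 change 2.41, SE 0.28, limma adjusted p = 5.98e-07) and was lower than there on the media scaffold (log2 change −2.76, SE 0.26, limma adjusted p = 1.07e-07) and the smart scaffold (log2 change −2.33, SE 0.28, limma adjusted p = 1.34e-06). ITPR2, a second receptor type, had 10.5, 12.3 and 12.2 at day 0, 35.9 and 30.9 on plastic at day 21, 32.8, 38.8, 23.5 and 27.6 on the media scaffold and 33.0, 22.6 and 16.1 on the smart scaffold. It rose from day 0 on plastic (log2 change 1.44, limma adjusted p = 0.00174) and on the media scaffold (log2 change 1.30, limma adjusted p = 0.00107). ITPR3 and the RYR genes were not analysed here.

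The 3 ORAI genes encode the pore of store-operated calcium entry and did not move as a block. ORAI3 had 227, 202 and 249.9 at day 0, 604, 540.3 and 434 at day 3, 868 and 897 on plastic at day 21, 723, 761, 744 and 734 on the media scaffold and 439, 651 and 698 on the smart scaffold. No later library overlapped those of day 0. It rose by day 3 (log2 change 1.21, SE 0.15, limma adjusted p = 9.93e-06) and by day 21 on plastic (log2 change 1.96, SE 0.17, limma adjusted p = 1.66e-08), on the media scaffold (log2 change 1.71, limma adjusted p = 9.24e-09) and on the smart scaffold (log2 change 1.37, limma adjusted p = 4.7e-07). ORAI1 was called once, on the smart scaffold against day 0 (259 to 303 against 109.8 to 146, log2 change 1.09, SE 0.14, limma adjusted p = 4.21e-06). That call ended without day 0 replicate 2 (0.99) and with libraries rescaled to the same total (0.87). ORAI2 was called in none of the comparisons, with 366 to 443 at day 0 and 192 and 219.9 on plastic at day 21 (log2 difference −0.97, SE 0.19, limma adjusted p = 0.000272).

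Among the 5 TRP channel genes, TRPM4 and TRPC4 were the most changed. TRPM4, a channel for monovalent cations opened by internal calcium, had 61.2, 59.7 and 62.4 at day 0, 176, 209 and 159 at day 3 and 247 and 337 on plastic at day 21. It had 103, 109, 101 and 98.7 on the media scaffold and 82.5, 92.0 and 88.5 on the smart scaffold, above day 0 and below the other plastic libraries. It rose by day 3 (log2 change 1.54, SE 0.14, limma adjusted p = 3.4e-07) and by day 21 on plastic (log2 change 2.22, SE 0.16, limma adjusted p = 1.66e-09). It was lower than this on the media scaffold (log2 change −1.48, SE 0.15, limma adjusted p = 2.62e-07) and the smart scaffold (log2 change −1.71, SE 0.16, limma adjusted p = 8.71e-08).

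TRPC4 (ENSBTAG00000009405), a receptor-operated cation channel, had 147, 129 and 135 at day 0, 60.6, 72.4 and 71.4 at day 3 and 173 and 192 on plastic at day 21. The media scaffold gave 32.0, 16.9, 25.9 and 27.6 and the smart scaffold 61.1, 45.1 and 56.3. Every scaffold library was below every library of plastic at day 0 and day 21. It fell from day 0 on the media scaffold (log2 change −2.41, SE 0.19, limma adjusted p = 5.11e-09) and on the smart scaffold (log2 change −1.33, SE 0.20, limma adjusted p = 2.13e-05). Relative to plastic at day 21 the log2 changes were −2.82 and −1.74 (limma adjusted p = 9.43e-09 and 4.03e-06). TRPC4AP, whose product binds TRPC4, was called on plastic at day 21 against day 0 (log2 change 1.05). That call ended without plastic replicate 2 (0.99), under quantile normalization (0.98), in edgeR (0.99) and with libraries rescaled to the same total (0.79).

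TRPV2, a cation channel responsive to stretch and heat, had 491, 502 and 519 at day 0 and 1129, 1357 and 873 at day 3 (log2 change 1.13, SE 0.13, limma adjusted p = 3.82e-06), 798 and 938 on plastic at day 21, and 598 to 655 and 578 to 688 on the media and smart scaffolds. Without replicate 2 of day 3 the early rise was 0.98 and not called. TRPV4, which opens on cell swelling, had 2.67 to 4.34 at day 0, 17.9 and 10.3 on plastic at day 21 and 6.96 to 18.1 on the media scaffold. It rose on plastic (log2 change 1.80, limma adjusted p = 0.00115) and on the media scaffold (log2 change 1.47, limma adjusted p = 0.00159). On the smart scaffold it had 8.25 to 11.5 and rose too (log2 change 1.30, limma adjusted p = 0.00691). That call ended with a pseudocount of 4 (0.89). TRPM7, a channel fused to a kinase, was called nowhere, with 4.92 to 11.2 at day 0.

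PIEZO1 (ENSBTAG00000020944), the pore of a stretch-activated channel, fell with differentiation. It had 681, 739 and 761 at day 0, 559, 726 and 357 at day 3, 288 and 234 on plastic at day 21, 352, 396, 411 and 264 on the media scaffold and 362, 402 and 272 on the smart scaffold. No day 21 library reached those of day 0, while day 3 overlapped day 0 and both scaffold groups. It fell on plastic by day 21 (log2 change −1.48, SE 0.24, limma adjusted p = 3.17e-05), on the media scaffold (log2 change −1.05, SE 0.20, limma adjusted p = 0.000203) and on the smart scaffold (log2 change −1.09, SE 0.21, limma adjusted p = 0.000296). The scaffold values lay near the fold limit: without media scaffold replicate 4 the log2 change was −0.91, with a replicate block −0.91, and without smart scaffold replicate 3 −0.93, none of them called. PIEZO2 was not analysed here.

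Of the 2 ATP-gated channel genes, P2RX4 had 303, 302 and 273 at day 0 and 716 and 680.4 on plastic at day 21 (log2 change 1.25, SE 0.14, limma adjusted p = 3.86e-07). With libraries rescaled to the same total that log2 change was 0.99 and not called. P2RX4 had 489 to 578 on the media scaffold, where it was not called against day 0. On the smart scaffold it had 543 to 751 and rose from day 0 (log2 change 1.05, limma adjusted p = 1e-06). The smart scaffold call ended with the same rescaling (0.82) and without smart scaffold replicate 3 (0.90). P2RX5 was called in none of the comparisons, with 135 to 158 at day 0 and 89.7 and 117 on plastic at day 21 (log2 difference −0.50, SE 0.16, limma adjusted p = 0.00994).

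**Figure D3:**
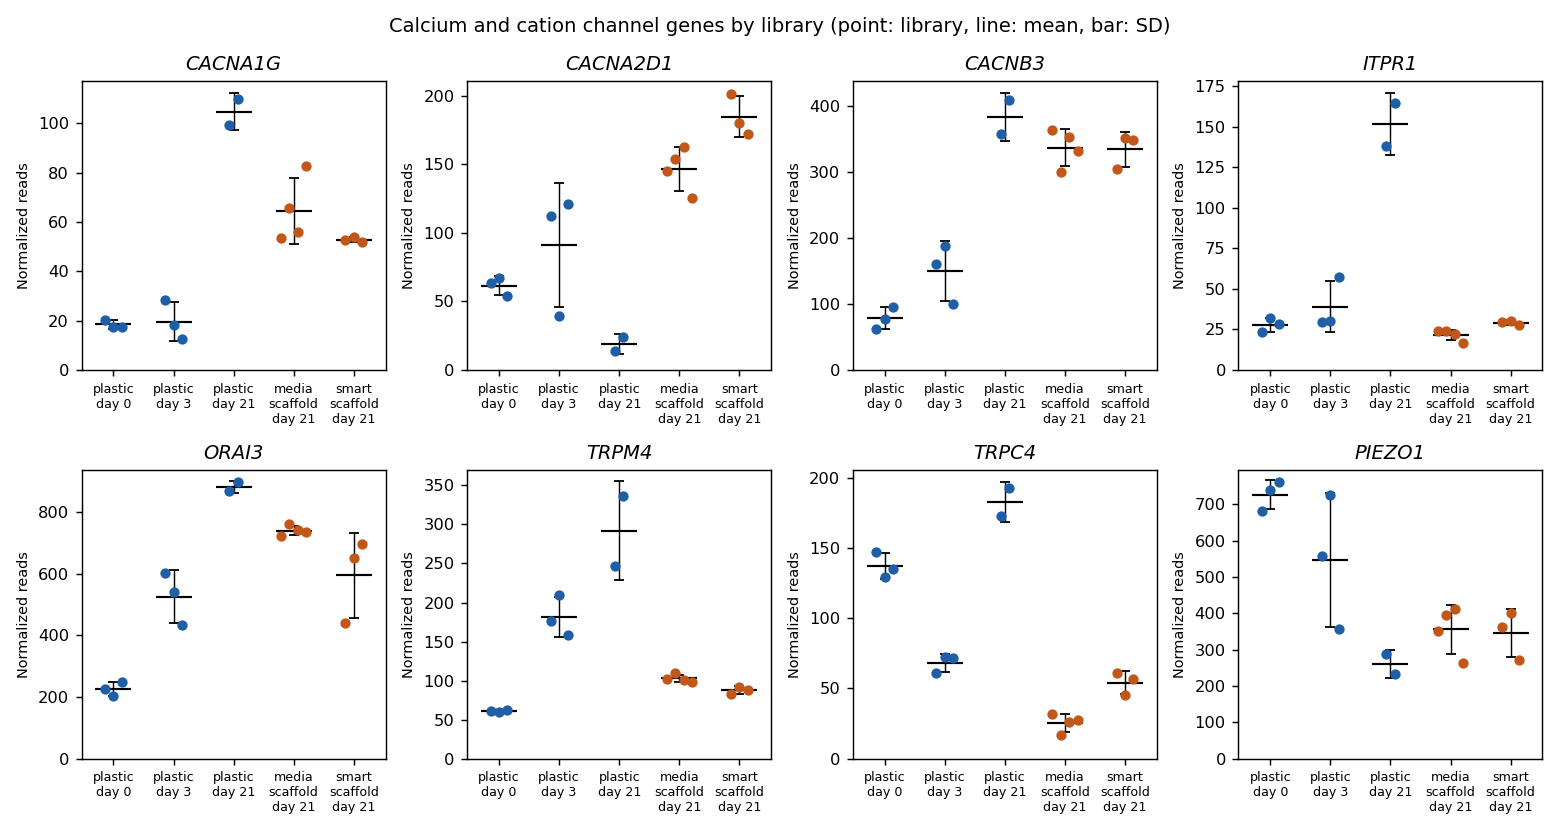
Normalized reads of 8 calcium and cation channel genes in each library (points; blue plastic, orange scaffold), with group mean (line) and SD (bar). ITPR1, TRPM4 and CACNA1G are highest on plastic at day 21, CACNA2D1 is lowest there and highest on scaffolds, TRPC4 is lowest on the media scaffold, and PIEZO1 is highest at day 0.

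All 3 anoctamin genes rose on plastic, and 2 of them were lower on scaffolds. ANO1, a calcium-activated chloride channel of smooth muscle and pacemaker cells, had 4.22, 2.67 and 1.58 at day 0, 0.674, 3.02 and 1.79 at day 3 and 22.1 and 27.5 on plastic at day 21. The scaffolds gave 4.10, 4.97, 3.24 and 9.87 (media) and 4.95, 5.21 and 3.45 (smart), all below the late plastic libraries, through which the gene met the minimum mean. It rose on plastic (log2 change 2.81, SE 0.50, limma adjusted p = 8.88e-05) and was lower than there on the media scaffold (log2 change −2.07, SE 0.48, limma adjusted p = 0.00115) and the smart scaffold (log2 change −2.23, SE 0.50, limma adjusted p = 0.000948). ANO6, a calcium-activated scramblase that exposes phosphatidylserine, had 204, 219.7 and 274 at day 0, 319, 488 and 445 at day 3 and 672 and 852 on plastic at day 21, but 160.0, 223, 157 and 215 on the media scaffold and 238, 248 and 140.2 on the smart scaffold. It rose on plastic (log2 change 1.71, SE 0.24, limma adjusted p = 6.75e-06) and was lower than there on the media scaffold (log2 change −2.02, SE 0.23, limma adjusted p = 8.59e-07) and the smart scaffold (log2 change −1.90, SE 0.24, limma adjusted p = 3.05e-06).

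ANO10, an anoctamin of internal membranes, rose on every surface instead. It had 264, 275 and 247 at day 0, 763 and 1024 on plastic at day 21, 718 to 749 on the media scaffold and 718 to 777 on the smart scaffold. The log2 changes from day 0 were 1.75, 1.49 and 1.53 (limma adjusted p = 5.33e-10, 3.66e-10 and 8.04e-10).

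The 5 CLC genes went in different directions. CLCN2, a chloride channel of the plasma membrane, had 16.2, 26.7 and 15.4 at day 0 and 33.1 and 34.4 on plastic at day 21, against 9.85, 9.95, 8.91 and 14.8 on the media scaffold and 8.25, 9.54 and 18.4 on the smart scaffold. It was lower than on plastic on the media scaffold (log2 change −1.57, SE 0.34, limma adjusted p = 0.00064) and the smart scaffold (log2 change −1.49, SE 0.36, limma adjusted p = 0.00154). CLCN3, an endosomal exchanger, had 52.7, 61.9 and 57.2 at day 0, 27.6 and 30.9 on plastic at day 21, 20.5, 17.9, 11.3 and 15.8 on the media scaffold and 11.6, 18.2 and 14.9 on the smart scaffold. Each scaffold library was below each plastic library, and the gene fell from day 0 on the media scaffold (log2 change −1.77, SE 0.23, limma adjusted p = 2.24e-06) and the smart scaffold (log2 change −1.89, SE 0.24, limma adjusted p = 2.65e-06).

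CLCN6 and CLCN7, exchangers of late endosomes and lysosomes, rose on plastic. CLCN6 had 53.4, 57.6 and 66.3 at day 0, 121, 146 and 152 at day 3 and 138 and 165 at day 21 (log2 change 1.23, SE 0.15, limma adjusted p = 7.93e-06 at day 3, and log2 change 1.34, SE 0.17, limma adjusted p = 1.65e-06 at day 21). CLCN7 had 205, 228 and 203 at day 0 and 632 and 629 on plastic at day 21 (log2 change 1.57, SE 0.12, limma adjusted p = 4.11e-09). On the scaffolds it had 458 to 524 (media) and 462 to 494 (smart), and its log2 changes from day 0 were 1.18 and 1.18. Both scaffold calls ended with libraries rescaled to the same total, at 0.93 and 0.95. CLCN4 was called nowhere.

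CLIC proteins exist as soluble proteins that can insert into membranes. CLIC1 had 8527, 8067 and 8552 at day 0, 9799, 11074 and 9144 at day 3, 4415 and 4862 on plastic at day 21, 3107, 3206, 3119.9 and 3694 on the media scaffold and 3724, 4138 and 3880.5 on the smart scaffold. All day 21 libraries were below all earlier ones. CLIC1 fell from day 3 to day 21 on plastic (log2 change −1.11, SE 0.11, limma adjusted p = 1.12e-07), and from day 0 on the media scaffold (log2 change −1.36, SE 0.09, limma adjusted p = 4.33e-10) and the smart scaffold (log2 change −1.10, SE 0.09, limma adjusted p = 2.16e-08). CLIC4 had 1219 and 1230.2 on plastic at day 21 and 2758, 2611 and 2443 on the smart scaffold (log2 change 1.09, SE 0.16, limma adjusted p = 1.73e-05), with 1642 to 1694 at day 0. CLIC2 had 0.703, 0.533 and 0.789 at day 0, 10.7, 10.9, 15.4 and 18.8 on the media scaffold and 6.60, 4.34 and 8.05 on the smart scaffold. It met the minimum mean through the media scaffold libraries, and rose from day 0 on both (log2 change 3.12 and 2.10, limma adjusted p = 3.99e-06 and 0.00058). CLIC2 rose on plastic by day 21 as well, to 3.44 and 8.28 (log2 change 1.94, SE 0.50, limma adjusted p = 0.00221).

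**Figure D4:**
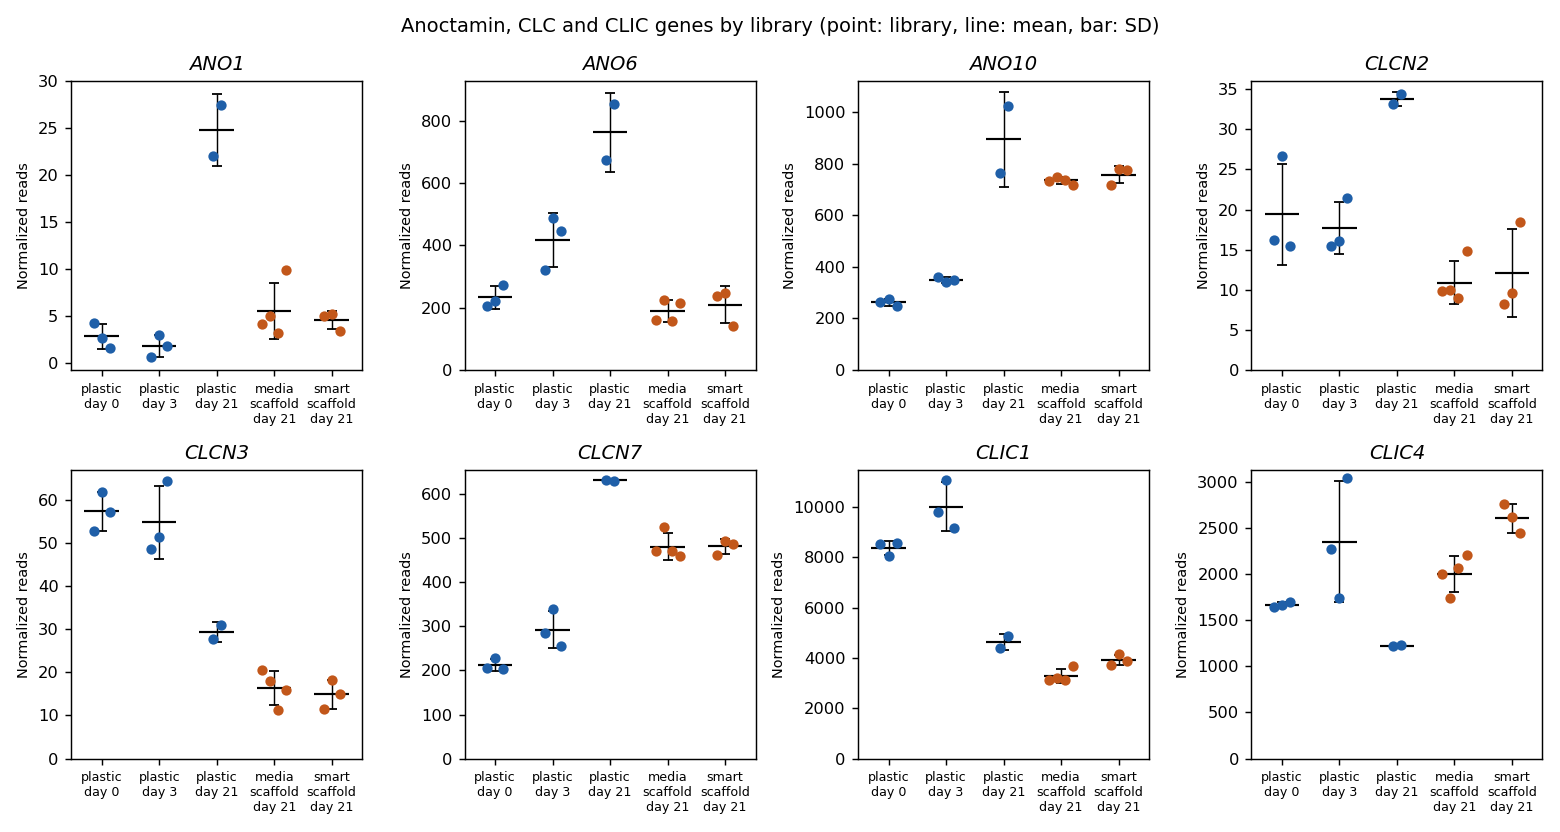
Normalized reads of 8 anoctamin, CLC and CLIC genes in each library (points; blue plastic, orange scaffold), with group mean (line) and SD (bar). ANO1, ANO6 and CLCN2 are highest on plastic at day 21, ANO10 is higher in all day 21 groups than before, and CLCN3 and CLIC1 are lowest on scaffolds.

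Smart against media scaffold asks what changes when the growth factors sit on the cellulose instead of in the medium. Here 1 of the 45 genes was called where 0.903% of all genes were, and it was higher (0.073% of all genes were called higher and 0.83% lower). Libraries of the 2 scaffolds did not overlap for 14 members (20.4% of all genes). TRPC4 was higher on the smart scaffold, at 61.1, 45.1 and 56.3 against 32.0, 16.9, 25.9 and 27.6 (log2 change 1.08, SE 0.19, limma adjusted p = 0.00497), and the libraries did not overlap. The call ended with a pseudocount of 4 (log2 change 0.99), without media scaffold replicate 2 (0.90) and without smart scaffold replicate 1 (0.98). KCNK12 was lower on the smart scaffold in all 3 libraries (log2 difference −0.78, SE 0.15, limma adjusted p = 0.0098), a difference under the fold limit. KCNJ8 was lower there without overlap, but its difference did not pass the adjusted test (log2 difference −1.11, SE 0.30, limma adjusted p = 0.0669, 95% interval −1.74 to −0.48). For KCNK5 the log2 difference was 0.92, with a 95% interval of −0.05 to 1.89 (limma adjusted p = 0.427). The 95% interval lay within 1 log2 unit of 0 for 32 of the 45 genes. It excluded 0 for 9, of which 4 were higher and 5 lower on the smart scaffold. These intervals are not adjusted for the number of genes, and 2 of the 45 had a limma adjusted p under 0.05.

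**Figure D5:**
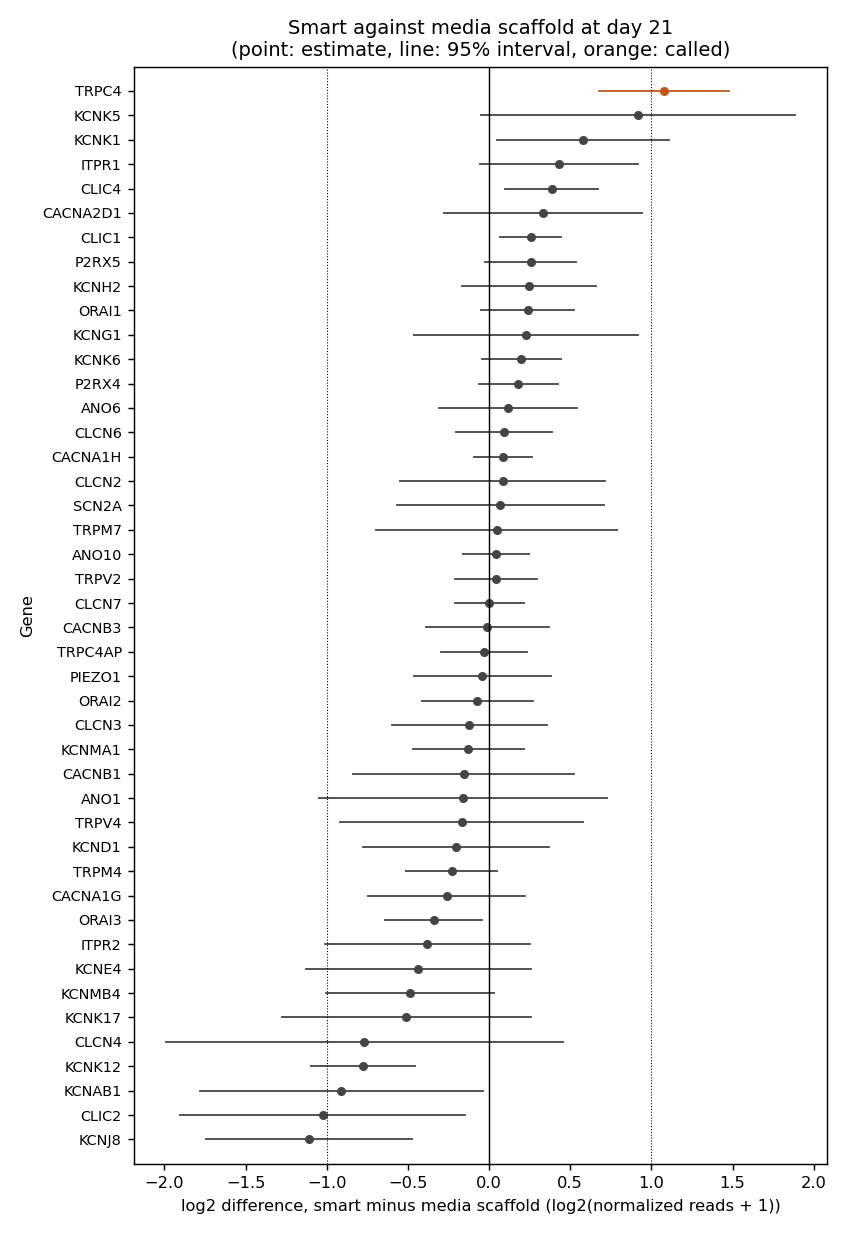
Log2 difference of 44 ion channel genes between smart and media scaffold at day 21 (point) with its 95% interval from limma (line); dotted lines mark the fold limit of 1. TRPC4 (orange) is the called gene, and 31 of the 44 intervals lie between the dotted lines.

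Genes that work with these channels were counted from other lists, chosen by function. Of 32 genes of calcium handling 23 were tested: 4 (17.4%) were higher and 8 (34.8%) lower on plastic at day 21 against day 0, where 21.2% and 24.1% of all genes were, with a median log2 change of −0.26 against −0.06 for all genes. Rescaled to the same total, 2 were higher and 8 lower (16.5% and 29.9% of all genes). STIM1, the calcium sensor that opens ORAI channels, had 126, 147 and 129 at day 0 and 1221 and 1162 on plastic at day 21 (log2 change 3.15, SE 0.15, limma adjusted p = 9.89e-12), the largest change of the list there. S100A4, a calcium-binding protein, followed (log2 change 2.51, limma adjusted p = 4.85e-10). Against plastic at day 21, 8 (34.8%) were higher and 4 (17.4%) lower on the media scaffold, where 20.8% and 14.6% of all genes were. On the smart scaffold 10 (43.5%) were higher and 4 (17.4%) lower, where 21.4% and 16% of all genes were. CASQ2, the calcium store protein of cardiac and slow muscle, had 2.76 and 0 on plastic at day 21 (2 reads in all), 198, 178, 192 and 272 on the media scaffold and 234, 311 and 329.9 on the smart scaffold. The ratio to plastic was 106, with a 95% counting interval of 29.3 to 876, on the media scaffold (limma adjusted p = 4.59e-10). CASQ2 met the minimum mean only through the scaffold libraries, so this test is not independent of that choice. Its plastic group means were 1.45 at day 0, 0 at day 3 and 1.38 at day 21. ATP2B4, a calcium pump of the plasma membrane, was lower on both scaffolds (log2 change −2.14 and −2.27, limma adjusted p = 7.02e-06 and 6.33e-06).

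Channel genes outside the chosen families were called in both directions. Of 26 tested, 7 (26.9%) were higher and 8 (30.8%) lower on plastic at day 21 against day 0, where 21.2% and 24.1% of all genes were. With libraries rescaled to the same total 5 were higher and 9 lower (16.5% and 29.9% of all genes). The largest changes were those of SCNN1A, a subunit of the epithelial sodium channel (0 to 2.81 at day 0 and 35.9 and 30.9 at day 21, log2 change 3.87, SE 0.52, limma adjusted p = 4.16e-06), and TMEM38A, a potassium channel of the muscle reticulum (17.1 to 23.9 and 208 and 199, log2 change 3.31, SE 0.26, limma adjusted p = 4.76e-09). Against plastic at day 21, 8 were higher and 3 lower on the media scaffold (20.8% and 14.6% of all genes). On the smart scaffold 8 were higher and 5 lower (21.4% and 16% of all genes). PKD2, a cation channel of cilia and reticulum, had 41.4 and 27.5 on plastic, 282, 259.7, 263 and 246 on the media scaffold and 286, 318 and 331 on the smart scaffold, and was the most changed of the list on both (log2 change 2.92, SE 0.20, limma adjusted p = 3.42e-09, and log2 change 3.17, SE 0.22, limma adjusted p = 2.29e-09).

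Of the 3 gap junction genes tested, GJA1, the main connexin of stromal and heart cells, rose on scaffolds, with 69.0 and 30.9 on plastic at day 21, 388, 451, 419 and 503 on the media scaffold and 449, 518 and 347 on the smart scaffold (log2 change 3.22, SE 0.26, limma adjusted p = 2.15e-08, and log2 change 3.20, SE 0.28, limma adjusted p = 4.01e-08). GJC1, another connexin, was lower there (log2 change −1.36 and −1.59, limma adjusted p = 7.1e-05 and 2.41e-05). Of the 6 sodium-potassium pump genes tested, FXYD1, a regulator of the pump in muscle, rose from day 0 on plastic (log2 change 3.68, SE 0.40, limma adjusted p = 2.68e-07) and on the media and smart scaffolds (log2 change 5.32 and 4.90, limma adjusted p = 2.07e-10 and 2e-09). ATP1B1, a beta subunit of the pump, fell from day 0 on plastic (log2 change −1.71, limma adjusted p = 6.76e-09).

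The 15 rows that matched by symbol but had a mean under 5 were not tested. They were SCN1A, KCNN4, SCN9A, KCNQ1, KCNC4, KCNB2, CLIC3, KCNMB3, KCNH8, TRPM3 (held by 2 gene identifiers), KCNN1, TRPC1, KCNJ2 and CLCN5. KCNQ1, a delayed rectifier gene, had 0 reads in the 6 libraries of day 0 and day 3. In normalized reads it had 13.8 and 3.44 at day 21 on plastic, 6.57, 3.98, 8.91 and 7.90 on the media scaffold and 6.60, 5.21 and 5.75 on the smart scaffold. SCN1A, a sodium channel pore gene, had 0.533 to 0.789 normalized reads at day 0, 0 to 3.57 at day 3, 1.38 and 0 at day 21 on plastic, 5.75 to 16.8 on the media scaffold and 6.07 to 10.3 on the smart scaffold. KCNB2, of the channel family that KCNG1 joins, had 3.20 to 10.7 normalized reads at day 0, 1.35 to 4.02 at day 3, 6.90 and 3.44 at day 21 on plastic, 0.810 to 3.98 on the media scaffold and 1.65 to 5.75 on the smart scaffold. Of the 45 members tested, all but CLCN4, ORAI2, P2RX5, CACNA1H and TRPM7 were called in at least 1 comparison.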

How the data were processed

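Reads of 15 MARS-seq libraries in 5 groups were analysed, and the labels name 17 libraries in 6 groups. Cells labelled as scaffold, day 0, were not analysed here, since 2 columns of values match no sample title. The authors' deposited signal is a read count divided by a scaling factor per library. Per the submitters' processing notes the tools were cutadapt, STAR, HTSeq and DESeq with build ARS-UCD1.2; versions and strand use are not given in the sources used here. Overlapping and antisense genes may therefore share reads. Reads recovered by undoing that scaling were whole within 0.1 for 100% of values.

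The values were tested as log2(value + 1) with limma 3.58.1 in R 4.3.3 (mean-variance trend, robust), 1 fit of all libraries with a mean per group, over genes with a mean of at least 5 (10960 of 12894). P-values were two-sided and adjusted by Benjamini-Hochberg within each of 8 comparisons. The pseudocount of 1 makes fold changes of sparsely read genes too small. Ratios resting on 1 to 3 reads carry a 95% counting interval, which covers counting error only, and folds over 0 reads use a floor of 3 reads over the group. The fit was tested on simulated data. Alternatives covered the pseudocount, filter, scaling, samples fitted, replicate block, edgeR 4.0.16 on the recovered reads and leaving out each library.

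Members and lists were chosen with earlier results of these data known. Any member could be named under its family; 1 member is counted but not reported here. Full statistics went to called members whose libraries do not overlap and to a set of landmark genes, and each other list was described by its counts and its 2 most changed genes. Within groups, libraries correlated at 0.962 to 0.992, and no 2 libraries agreed within sampling noise (lowest chi-square per degree of freedom 2.39).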

Additional observations from a re-analysis of the deposited data

Results flagged for a closer look

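In the 4 media scaffold libraries, the group large enough for the check, 2 of the 45 channel genes had a library that stood apart by Dixon's criterion, where chance marks about 1 group in 20. For KCNG1, replicate 4 had 94.8 normalized reads, the next library 80.4 and the lowest 77.8. For CLIC1, replicate 4 had 3694 normalized reads, the next library 3206 and the lowest 3107. Without that library KCNG1 stayed called against plastic at day 21 (limma adjusted p = 4.08e-08) and CLIC1 against day 0 (log2 change −1.41, limma adjusted p = 1.04e-09).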

How the results depend on the processing

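Of the 148 called pairs of a channel gene and a comparison, 116 kept their call in every alternative run for them. The alternatives moved few counts of called members by over 1.5 times. A minimum mean of 20 gave 11 called members, against 17, for media scaffold against plastic at day 21, with fewer members tested. Smart against media scaffold had 2 called members, against 1, when the compared groups were fitted alone and in edgeR on the recovered reads.

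Leaving out 1 library at a time gave 13 to 16 called members for day 3 against day 0, 19 to 23 for day 21 against day 3 on plastic and 28 to 29 for day 21 against day 0. It gave 23 to 24 for the media and 24 to 25 for the smart scaffold against day 0, 16 to 19 for the media and 18 to 19 for the smart scaffold against plastic at day 21, and 0 to 1 for smart against media scaffold. The 0 came without media scaffold replicate 2 and without smart scaffold replicate 1, where 1 had been called. Where plastic at day 21 was left with 1 library, that library was assumed to vary like the other groups. The shares of all genes called in these fits, and with the replicate block below, are not given here. The counts therefore do not set the members against other genes.

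Directions turned for landmark genes in comparisons where they were not called. With libraries rescaled to the same total, the log2 difference was −0.20 for KCNMA1 on the media scaffold and −0.15 for ITPR1 on the smart scaffold, both against day 0. Under quantile normalization it was −0.0078957 for KCNMA1 on the media scaffold against day 0 and −0.15 for ITPR2 at day 3 against day 0, and edgeR gave −0.050 for ITPR2. Leaving out 1 library at a time gave, at day 3 against day 0, −0.34 to 0.26 for ITPR2 and −0.056 to 0.15 for ORAI1. KCNMA1 ran from −0.62 to 0.028 on plastic at day 21 and from −0.035 to 0.12 on the media scaffold, both against day 0, and from −0.10 to 0.54 on the smart scaffold against plastic. On the smart scaffold against day 0, ITPR1 ran from −0.045 to 0.18 and ANO6 from −0.34 to 0.074. Between smart and media scaffold PIEZO1 ran from −0.18 to 0.12, TRPV2 from −0.0083 to 0.12 and ANO6 from −0.029 to 0.38. The cause was not tested.

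Same-numbered replicates did not deviate together in every pair (correlations of −0.0744 to 0.157), so the numbers were not taken to pair the libraries. With a replicate block the counts were 14, 21, 29, 23, 25, 17, 20 and 1, in the order day 3 against day 0, day 21 against day 3 and against day 0 on plastic, media and smart scaffold against day 0, media and smart scaffold against plastic, and smart against media scaffold.

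Depth limits genes with few reads most on plastic at day 21, where 2 libraries of 2197356 and 5264578 reads stand for the group and 1 read is worth up to 3.44 normalized reads. EdgeR's quasi-likelihood test on the whole reads called 4834 genes for day 21 against day 0 on plastic, where limma called 4956.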
